A study of Mus musculus with 4 samples.

Results

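The genes described are 35 chaperone, folding enzyme and proteasome genes of the mouse pyloric stomach, out of 2701 genes in the authors' deposited table. They were chosen by symbol alone: every listed gene whose name begins like those of the heat-shock protein, J protein, CCT chaperonin, prefoldin, RuvB-like, prolyl isomerase, disulfide isomerase, calreticulin, EDEM, derlin, ERO1, BAG and proteasome families, without the immunoproteasome genes Psmb8, Psmb9 and Psmb10. GENCODE annotates 208 protein-coding mouse genes with such symbols. The table lists only genes that the authors called different between genotypes, so a family member without a row was not analysed here, and nothing follows about it. All 35 passed the low-count filter of the test.

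RNA-seq was made from 4 libraries of C57BL/6 stomach, 2 per genotype, taken 8 weeks after tamoxifen. WT denotes mice whose Lats1 and Lats2 genes are both flanked by loxP sites (Lats1fl/fl;Lats2fl/fl), and Lats1/2iΔLgr5 denotes mice that carry the same floxed genes plus Lgr5-CreER, a tamoxifen-activated recombinase made in Lgr5-positive stem cells. Both groups are floxed and both received tamoxifen, so they differ by the Cre allele and by what it deletes. Recombination begins in the Lgr5-positive cells and is inherited by their progeny, whereas the RNA came from 10 µm cryosections of the pylorus, so each level averages recombined and unrecombined epithelium and the tissue around it. The labels call the cell type pyloric epithelium and give no age. They do not say that the libraries of a group came from separate mice, so p-values measure the spread between libraries, which may be technical.

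Newly made proteins fold with the help of chaperones. HSP70 and HSP60 proteins bind and release unfolded chains using ATP, J proteins bring clients to HSP70, and the ring-shaped CCT chaperonin, fed by prefoldin, folds actin and tubulin. Secreted proteins, such as the mucins and trefoil factors of gastric surface cells, fold instead in the endoplasmic reticulum (ER), where disulfide isomerases form their disulfide bonds, ERO1 oxidases re-oxidise those enzymes, and EDEM and derlin proteins pass failed chains back to the cytosol. There the proteasome, a barrel of proteases opened by a cap or an activator, degrades them.

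Listed genes held 13413629 to 17689207 counts per library. Lats1, the targeted gene that has a row, fell from 2152 and 1974 normalized counts in WT to 943 and 1129 in Lats1/2iΔLgr5, where a normalized count is a read count divided by the library's size factor. All 4 surface mucous markers were listed and all were lower, with summed levels of 4326069 and 4578813 in WT against 2329384 and 1898614 in Lats1/2iΔLgr5. Enteroendocrine markers were higher (2 of 4), fibroblast (2 of 5), endothelial (1 of 3) and pancreatic acinar markers (1 of 5) lower, and none of the gland mucous, parietal, chief, smooth muscle, leukocyte or erythroid markers had a row. The acinar drop rests on WT 2: Cela2a had 6 in WT 1 and 215 in WT 2, against 4 and 1 in Lats1/2iΔLgr5. Summed enteroendocrine levels were 63 and 73 in WT, and 318 and 1625 in Lats1/2iΔLgr5, which differ widely. In WT 2, interferon-induced and class I genes stood above WT 1, for example Tap1 at 3934 against 886. These libraries are kept throughout, and values without them are given where a result rests on them.

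Of the 35 genes, 19 rose and 16 fell in Lats1/2iΔLgr5 in the authors' deposited table. Across the roughly 13138 genes the authors tested, 8.81% were called higher and 11.7% lower. The nearer comparison for these shares is 19 and 16 of the 208 annotated genes, not of the 35 listed ones. How many of the 208 the authors tested is not known. The edgeR quasi-likelihood test called the same 19 higher and 16 lower, but the background here is 42.9% higher and 57.1% lower of 2700 listed genes, so nearly every row passes and the count says little about these genes. By compartment, 1 of the 9 ER genes rose and 8 fell, all 4 proteasome genes fell, and of the 22 other genes, which act in the cytosol, nucleus or mitochondria, 18 rose and 4 fell (Bag1, Bag3, Dnajb6 and Dnajb13). Compartments were assigned from general knowledge after the values were seen, and their difference was not tested.

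The changes were moderate in size. The median log2 fold change over the 35 was 0.47, against -0.50 over all listed genes. With 19 higher and 16 lower, and none between -0.45 (Psmb1) and 0.40 (Cct8), this median is the value of a gene that rose. It restates that split and is not a typical change. The genes that rose had a median of 0.62, against 1.09 for all listed genes that rose, and those that fell had -0.82, against -0.73. A change of at least 1 on the log2 scale was reached by 22.9% of the 35 genes and by 40.1% of listed genes. The 35 genes also had more counts, with a median base mean (mean normalized count over all libraries) of 2195, against 1213 for all listed genes. The part of count level in these sizes was not tested. In all 35 the levels of the WT and Lats1/2iΔLgr5 libraries did not overlap, as in 99.93% of listed genes. In tissue RNA, fewer cells of a type and less RNA per cell cannot be told apart, which applies to every level given here.

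**Figure D1:**
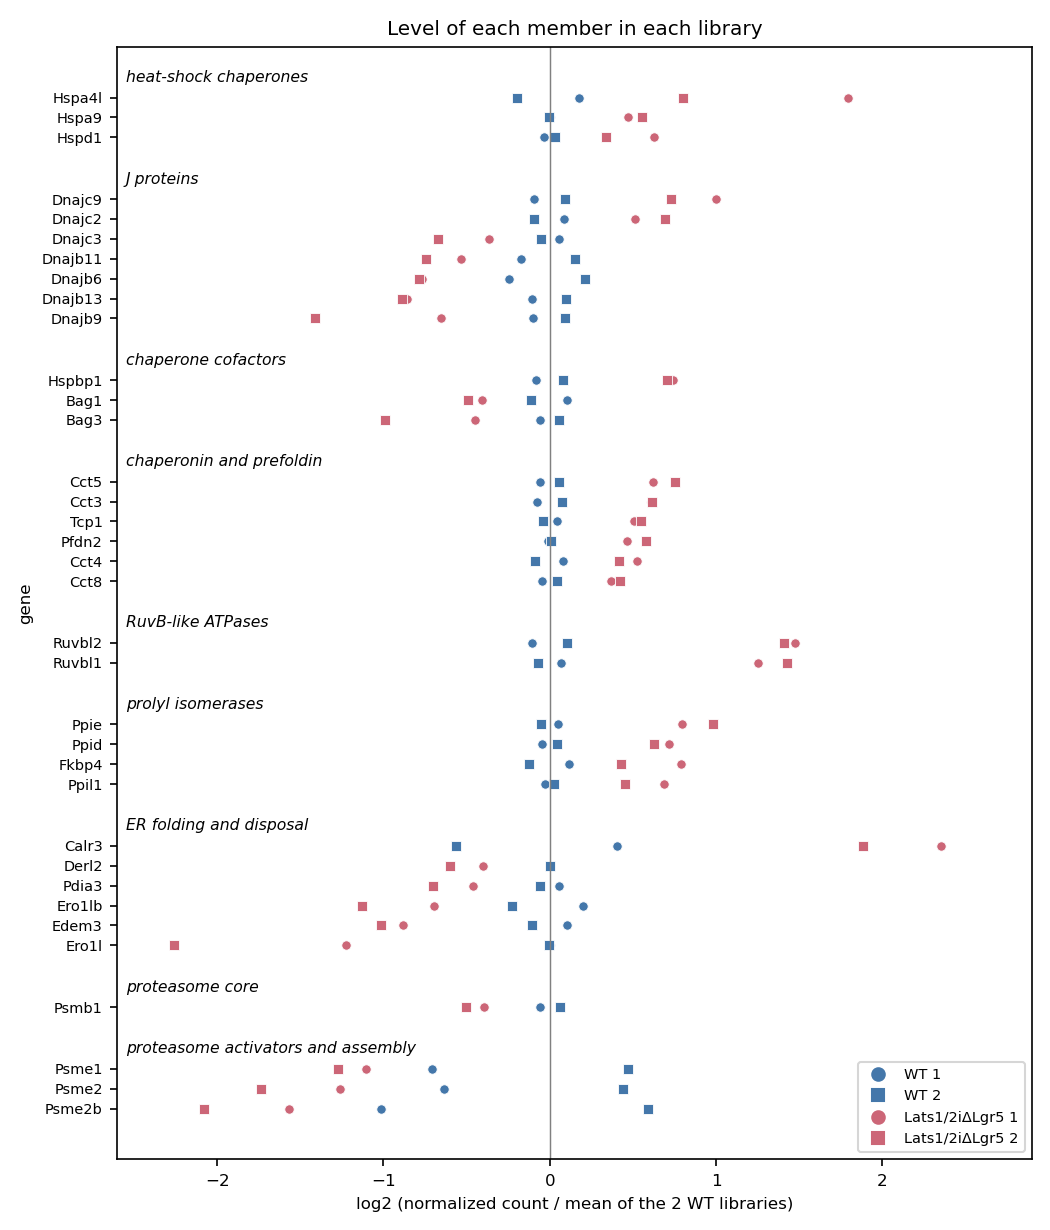
Level of each of the 35 genes in each library, as the log2 ratio of its normalized count to the mean of the 2 WT libraries (x axis), with genes grouped by role (y axis). Circles and squares are libraries 1 and 2, blue WT and red Lats1/2iΔLgr5. All chaperonin, RuvB-like and isomerase genes lie right of 0 in Lats1/2iΔLgr5, most ER genes lie left, and the WT libraries lie farthest apart in the 3 Psme genes, followed by Calr3.

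The heat-shock chaperone class had 3 listed genes of 25 annotated, and all 3 rose. Hspa9, the HSP70 of the mitochondrial matrix, which pulls imported chains through the membrane and folds them, had 7227 normalized counts in WT 1, 7199 in WT 2, 9976 in Lats1/2iΔLgr5 1 and 10596 in Lats1/2iΔLgr5 2. Hspd1, the mitochondrial HSP60, gave 7468 and 7827 in WT and 11795 and 9664 in Lats1/2iΔLgr5. Both genes were thus higher in each Lats1/2iΔLgr5 library than in either WT library, by 0.51 ± 0.12 (SE) for Hspa9 and 0.49 ± 0.15 for Hspd1 on the log2 scale. Of the 75-base runs of Hspd1 transcripts, 29.6% also occur in pseudogenes, so its count is less certain.

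Hspa4l, an HSP110-type exchange factor that releases nucleotide from HSP70, gave 550.2 and 426 normalized counts in WT and 1693 and 851 in Lats1/2iΔLgr5. Its log2 fold change was 1.38 ± 0.36 (SE). The size of the rise rests on Lats1/2iΔLgr5 1, whose level was 1.99 times that of Lats1/2iΔLgr5 2, a drop between these libraries that only 2.11% of listed genes exceeded. Without Lats1/2iΔLgr5 1 the log2 fold change was 0.80 and the edgeR adjusted p 0.0635. Neither cytosolic HSP90 gene (0 of 2) had a row, nor did Hspa8, the constitutive HSP70.

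The chaperonin and prefoldin class had 6 listed genes of 14, and all 6 rose. They were 5 of the 8 CCT subunit genes annotated as protein-coding (Tcp1, which encodes the first subunit, Cct3, Cct4, Cct5 and Cct8) and Pfdn2, a prefoldin subunit; Cct8 and Pfdn2 fall outside the rule for named genes and were added once their values were known. Cct5 gave 4173 and 4509 normalized counts in WT and 6687 and 7316 in Lats1/2iΔLgr5, a log2 fold change of 0.69 ± 0.13 (SE). Its adjusted p in the authors' deposited table was 1.74e-04. Cct3 gave 3265 and 3632 against 5255 and 5279, a log2 fold change of 0.61 ± 0.12. Tcp1 gave 4736 and 4468 against 6547 and 6726, or 0.53 ± 0.12. Each of these subunits was separated between genotypes by more than its libraries differed within one.

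CCT subunits assemble in equal numbers, and their transcripts rose by similar factors, 1.32-fold for Cct8 to 1.61-fold for Cct5. Summed over the 5 genes, the level was 19989 ± 234 normalized counts in WT and 29126 ± 499 in Lats1/2iΔLgr5 (SD, n = 2). Per kilobase of principal transcript, Cct5 was the most abundant of the 5 in both genotypes (2343 ± 128 and 3779 ± 240.0, SD) and Cct4 the least (1276 ± 106 and 1770 ± 95.9). Relative to Tcp1, Cct3 stood at 0.853 and 1.01 in WT and at 0.993 and 0.971 in Lats1/2iΔLgr5, so this ratio moved no more between genotypes than between the WT libraries. The same ratio for Cct5 was 1.16 and 1.33 in WT and 1.35 and 1.44 in Lats1/2iΔLgr5. For Cct8 it was 0.926 and 1.04 in WT and 0.892 and 0.901 in Lats1/2iΔLgr5. By narrow margins, the genotypes thus did not overlap in the Cct5 ratio, higher in Lats1/2iΔLgr5, or in the Cct8 ratio, lower there. Tcp1 exons overlap 712 bases of genes on the other strand, and Cct8 exons 192 bases of Usp16; none of these neighbours was listed.

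**Figure D2:**
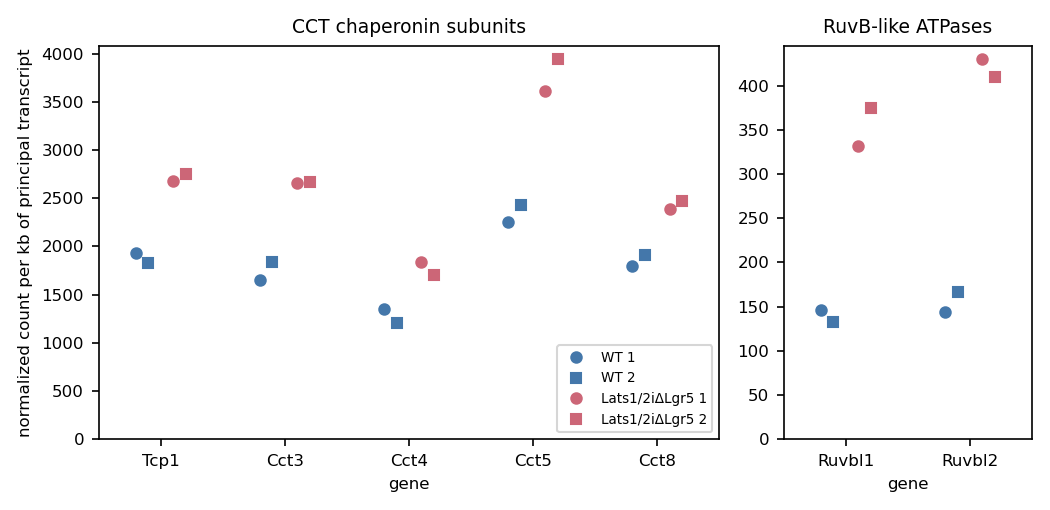
Normalized count per kilobase of principal transcript (y axis, from 0) for the 5 listed CCT subunit genes (left) and the RuvB-like genes (right); each point is 1 library, circles and squares libraries 1 and 2, blue WT and red Lats1/2iΔLgr5. In every subunit both red points lie above both blue points, and Cct5 is highest in both genotypes.

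Ruvbl1 and Ruvbl2 encode AAA ATPases that form mixed rings in chromatin remodelers and in the R2TP complex, which works with HSP90 to assemble other complexes. Their log2 fold changes exceeded those of all 6 chaperonin and prefoldin genes. Ruvbl2 (chromosome 7, 45421760 to 45438096, GRCm38) gave 332 and 384 normalized counts in WT and 995 and 948 in Lats1/2iΔLgr5, a log2 fold change of 1.44 ± 0.19 (SE). Among the 35 genes it had the smallest adjusted p in the authors' deposited table, 3.02e-09. Ruvbl1 (chromosome 6, 88465409 to 88497572) gave 245 and 222 against 556 and 627, or 1.34 ± 0.21. The libraries of each genotype lay close together, and the Ruvbl1 to Ruvbl2 ratio per kilobase was 1.02 and 0.797 in WT and 0.771 and 0.913 in Lats1/2iΔLgr5, ranges that overlap. Of Ruvbl1's 75-base runs, 40.5% are shared with Gm5837, so reads from these runs cannot be assigned by sequence. Ruvbl2 exons overlap 448 bases of Lhb and Gys1 on the other strand, and reads from these neighbours cannot be told apart if the authors counted without strand.

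All 4 listed prolyl isomerases of 27 annotated rose, by 0.57 to 0.89 on the log2 scale. These enzymes turn peptide bonds before proline, a slow step of folding. Fkbp4 (FKBP52), an HSP90 co-chaperone of steroid receptors, gave 4553 and 3848 normalized counts in WT and 7268 and 5652 in Lats1/2iΔLgr5, or 0.62 ± 0.18 (SE). Ppid (cyclophilin 40), which also binds HSP90, gave 781 and 829 against 1321 and 1246, or 0.67 ± 0.16. Fkbp4 libraries differed more within a genotype than those of Ppid, but neither gene overlapped between genotypes. Ppie and Ppil1, cyclophilins found in the spliceosome, rose by 0.89 ± 0.21 and 0.57 ± 0.18.

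Among chaperone cofactors, Hspbp1, which exchanges nucleotide on HSP70 and inhibits its folding cycle, rose from 424 and 473 normalized counts to 749.7 and 732, a log2 fold change of 0.72 ± 0.18 (SE). Bag3, which couples HSP70 clients to autophagy, gave 2081 and 2249 in WT and 1588 and 1091 in Lats1/2iΔLgr5, or -0.69 ± 0.22. Bag1, which couples HSP70 to the proteasome, gave 9932 and 8564 against 6960 and 6581, or -0.45 ± 0.14. Bag3 and Bag1 were thus lower in both Lats1/2iΔLgr5 libraries. Without Lats1/2iΔLgr5 2 the Bag3 value was -0.45. The Bag1 start lies 113 bases from that of Chmp5, on the other strand, and Chmp5 was also lower (6057 and 6598 against 4393 and 3249).

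J proteins were divided: of 7 listed of 45 annotated, 2 rose and 5 fell. Dnajc9, a nuclear J protein that is also a histone chaperone, gave 299 and 341 normalized counts in WT and 641 and 529.9 in Lats1/2iΔLgr5, a log2 fold change of 0.87 ± 0.22 (SE). Dnajc2, which works with HSP70 on the ribosome as its chains emerge, gave 829 and 732 against 1115 and 1262, or 0.61 ± 0.17. Outside the ER, Dnajb6, which suppresses aggregation of polyglutamine proteins, fell from 4200 and 5768 to 2932 and 2893, or -0.78 ± 0.18. Of the 75-base runs of Dnajb6, 16.2% also occur in other genes, and its exons overlap 249 bases of Gm5129 on the other strand. Dnajb13, a J protein of ciliary axonemes, fell from 396 and 457 to 235 and 231, or -0.87 ± 0.22. In Dnajb6 and Dnajb13 the Lats1/2iΔLgr5 libraries were closer together than the WT libraries. Dnajb13 exons overlap 305 bases of Ucp2 on the other strand, and Ucp2, which has far more counts, was also lower (32598 and 37657 against 24904 and 27498).

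The remaining J proteins sit in the ER with the HSP70 BiP as partner, and all 3 fell. Dnajb9 (ERdj4), which guides misfolded chains to disposal, gave 2282 and 2605 normalized counts in WT and 1551 and 918 in Lats1/2iΔLgr5, or -0.99 ± 0.27 (SE). Dnajb11 (ERdj3) gave 4933 and 6192 against 3838 and 3316, or -0.64 ± 0.17. Dnajc3 (p58IPK), which also restrains the stress kinase PERK, gave 9299 and 8634 against 6970 and 5633, or -0.51 ± 0.15. In each of the 3 the lowest library was Lats1/2iΔLgr5 2, and without it the Dnajb9 value was -0.66. Dnajb11 and Dnajc3 were likewise added once their values were known.

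The class of ER folding and disposal enzymes had 6 listed genes of 27, of which 5 fell. Ero1l (chromosome 14, 45283087 to 45318771), the oxidase that recharges disulfide isomerases, gave 14269 and 14209 normalized counts in WT and 6081 and 2974 in Lats1/2iΔLgr5. Its log2 fold change was -1.65 ± 0.34 (SE), the largest drop apart from that of Psme2b, and the authors' deposited table lists 3.59e-05 as its adjusted p. The WT libraries were almost equal, whereas Lats1/2iΔLgr5 1 had 2.04 times the level of Lats1/2iΔLgr5 2. Without Lats1/2iΔLgr5 2 the value was -1.23. Its paralog Ero1lb, added in the same way, gave 751 and 558 against 405 and 299, or -0.89 ± 0.26. Per kilobase, Ero1l stood at 18.2 and 24.4 times Ero1lb in WT and at 14.4 and 9.53 times in Lats1/2iΔLgr5, so both ratios in Lats1/2iΔLgr5 were below both in WT.

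Pdia3 (ERp57), the disulfide isomerase that works with calnexin and calreticulin on glycoproteins, gave 36488 and 33784 normalized counts in WT and 25542 and 21638 in Lats1/2iΔLgr5, or -0.57 ± 0.15 (SE). It had the highest level per kilobase of the genes with a principal transcript length, 12684 ± 690.3 in WT and 8516 ± 997 in Lats1/2iΔLgr5 (SD, n = 2). Edem3 (chromosome 1, 151755371 to 151822051), which trims mannose from misfolded glycoproteins to mark them for disposal, gave 7514 and 6489 against 3804 and 3465, or -0.95 ± 0.14. In the authors' deposited table the adjusted p of Edem3 was 1.67e-06. Derl2, a derlin of the retrotranslocation machinery, gave 2293 and 2291 against 1735 and 1511, or -0.50 ± 0.15, and was also added knowing its values. In all 3 the genotypes were separated by more than the libraries of either.

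Calr3, a calreticulin-like gene best known from testis, was the exception. Per kilobase in WT it was the least abundant of the genes with a principal transcript length (12.9 ± 5.93, SD, n = 2). In Lats1/2iΔLgr5 its level per kilobase was 56.9 ± 12.9, and Psme2b was lower at 53.3 ± 13.3 (SD, n = 2). Calr3 gave 30.3 and 15.4 normalized counts in WT and 117 and 84.4 in Lats1/2iΔLgr5, a log2 fold change of 2.14 ± 0.52 (SE). Its start lies 10 bases from that of 1700030K09Rik, on the other strand, which had no row. Summed over the 9 ER genes, the level was 76317 ± 2179 normalized counts in WT and 44940 ± 7215 in Lats1/2iΔLgr5 (SD, n = 2); without Pdia3 it was 41181 ± 267 and 21350 ± 4455. In both sums Lats1/2iΔLgr5 2 lay below Lats1/2iΔLgr5 1, as for the surface mucous markers, but WT 1 lay above WT 2, opposite to those markers. Nearly all of these genes and markers were listed as lower, so WT above Lats1/2iΔLgr5 adds nothing. A shared order of 2 libraries says little. The part of surface mucous cells in the result was not tested.

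The promoters of 3 ER genes that fell are shown because they hold letters of elements known from the ER stress response. RefSeq promoter windows of 300 bases (250 before the start and 50 after, GRCm38.p6) were matched for 29 of the 35 genes. A search added after the data were seen looked on both strands for the ER stress response element, a CCAAT box with CCACG at a fixed spacing, bound by NF-Y and ATF6. It was found in Dnajc3 and Ero1lb, and in 0.137% of the 27025 genes with a window. A gene, among the 35 and among all, was counted once if any of its windows held the letters. The capitals mark the element, which in Ero1lb reads on the opposite strand, and both sequences run 5′ to 3′ along the gene up to the base before its start.
Dnajc3, chr14:118937682-118937931, plus strand: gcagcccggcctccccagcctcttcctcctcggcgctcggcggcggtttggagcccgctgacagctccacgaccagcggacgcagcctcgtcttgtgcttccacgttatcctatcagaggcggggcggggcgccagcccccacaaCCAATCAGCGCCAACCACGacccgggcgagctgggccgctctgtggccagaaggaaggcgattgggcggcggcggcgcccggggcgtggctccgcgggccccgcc
Ero1lb, chr13:12565633-12565882, plus strand: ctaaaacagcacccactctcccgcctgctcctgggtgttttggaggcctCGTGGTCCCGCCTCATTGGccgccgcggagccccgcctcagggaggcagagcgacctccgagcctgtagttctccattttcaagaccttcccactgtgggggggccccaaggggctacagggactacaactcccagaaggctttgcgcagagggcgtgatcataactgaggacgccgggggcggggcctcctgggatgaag

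The shorter relative of this element, ATTGGNCCACG, was found in Dnajb11 just after the start, from base 7 to base 17 counted from 0 at the first transcribed base, and in 0.0444% of genes. The CCAAT box alone (both strands, part of both elements above) was held by 8 of the 9 ER genes and by 16 of all 29 (55.2%), against 41.1% of genes. Dnajb11 has 4 CCAAT boxes before its start, all read on the opposite strand and shown in capitals, and the element after the start is capitalised in the second sequence. These matches are descriptions of letters, with no binding measured.
Dnajb11, chr16:22857595-22857844, plus strand: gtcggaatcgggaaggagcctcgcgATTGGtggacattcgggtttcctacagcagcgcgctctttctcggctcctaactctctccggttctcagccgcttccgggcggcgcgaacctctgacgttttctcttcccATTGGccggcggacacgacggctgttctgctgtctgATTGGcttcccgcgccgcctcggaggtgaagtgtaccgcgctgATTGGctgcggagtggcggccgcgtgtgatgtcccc
Dnajb11 after the start, chr16:22857845-22857874, plus strand: ggcggcgATTGGCCCACGcctggctgctcg

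The heat shock element core GAANNTTC, a palindrome found in sites of HSF1, was held by 4 of the 29 (13.8%) against 9.04% of genes. The 4 were Fkbp4 and Hspd1, which rose, and Dnajb6 and Bag3, which fell. In Bag3 the letters lie after the start, from base 42 to base 49. In Hspd1 they occur only in the window of its more downstream RefSeq start, inside the gene as GENCODE annotates it. The E-box CACGTG occurred in Dnajb9 and Hspd1 (6.90% against 8.09%), and TGACNNNGC, an antioxidant-type element, in Bag1, Calr3, Pdia3 and Tcp1 (13.8% against 14.0%). Fkbp4 and Dnajb6 are shown because they hold the same core, in capitals, and moved in opposite directions. Dnajb6 is shown from the more upstream of its RefSeq starts. That start and the marked core lie inside the gene as GENCODE annotates it, from base 29735688.
Fkbp4, chr6:128438657-128438906, minus strand: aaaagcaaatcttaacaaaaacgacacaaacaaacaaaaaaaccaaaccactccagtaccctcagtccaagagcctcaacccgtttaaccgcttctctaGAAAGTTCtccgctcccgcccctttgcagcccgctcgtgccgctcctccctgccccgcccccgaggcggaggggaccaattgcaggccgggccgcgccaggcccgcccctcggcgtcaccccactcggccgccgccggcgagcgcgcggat
Dnajb6, chr5:29735648-29735897, plus strand: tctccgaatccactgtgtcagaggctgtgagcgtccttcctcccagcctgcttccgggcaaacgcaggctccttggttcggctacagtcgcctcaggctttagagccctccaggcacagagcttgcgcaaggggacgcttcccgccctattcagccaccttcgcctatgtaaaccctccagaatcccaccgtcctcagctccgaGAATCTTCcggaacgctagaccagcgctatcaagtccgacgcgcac

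Of the proteasome, 1 of 16 core genes, 0 of 20 cap genes and 3 of 10 activator and assembly genes were listed, and all 4 fell. Psmb1, a beta subunit of the core ring, gave 5241 and 5694 normalized counts in WT and 4155 and 3859 in Lats1/2iΔLgr5, a log2 fold change of -0.45 ± 0.13 (SE). It was the only listed core gene, with 0 of 8 Psma and 1 of 8 Psmb genes in the table. Psmb1 levels differed between genotypes by more than between libraries.

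Psme1 and Psme2 encode PA28 alpha and beta, an interferon-induced activator that opens the core for peptide production, and their genes lie close together on chromosome 14. Psme1 had 1870 normalized counts in WT 1, 4230 in WT 2, and 1418 and 1263 in Lats1/2iΔLgr5, a log2 fold change of -1.19 ± 0.38 (SE). Psme2 gave 3621 and 7653 against 2353 and 1693, or -1.48 ± 0.38. Psme2b, a Psme2-like gene on chromosome 11, gave 77.0 and 234 against 52.5 and 36.7, or -1.80 ± 0.62. Of its 75-base runs, 60.2% are shared with Psme2, and 22.9% of those of Psme2 are shared with Psme2b. In all 3 genes WT 2 stood far above the other libraries, and WT 1 lay between WT 2 and Lats1/2iΔLgr5. The excess of WT 2 over WT 1 in Psme1 was larger than in 96.8% of listed genes.

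The size of these drops rests on WT 2. Without it the log2 fold change was -0.48 for Psme1, -0.84 for Psme2 and -0.79 for Psme2b, and the edgeR adjusted p of Psme2b was 0.197. The class I genes Tap1 and B2m and the interferon-induced Usp18, chosen after their values were seen, had the same order of libraries. Of the other interferon-induced genes read, Gbp2 did not, with 521 in Lats1/2iΔLgr5 1 and 608 in Lats1/2iΔLgr5 2. Tap1, a peptide transporter, gave 886 and 3934 in WT and 435 and 237 in Lats1/2iΔLgr5. B2m, the class I light chain, gave 9519 and 45251 against 5226 and 3806, and Usp18, a protease, 206 and 769 against 40.7 and 34.4. The part of an interferon response or of the cells that mount it in the Psme values was not tested. In the first bases after the RefSeq start of Psme1, from base 9 to base 18, the letters GAAANNGAAA occur on the opposite strand (capitals below), as in the windows of 3.99% of genes. That start, base 55578494, lies inside the gene as GENCODE annotates it, from base 55578123. The motif was added after the data were seen.
Psme1 after the start, chr14:55578494-55578523, plus strand: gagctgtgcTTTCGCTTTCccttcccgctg

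**Figure D3:**
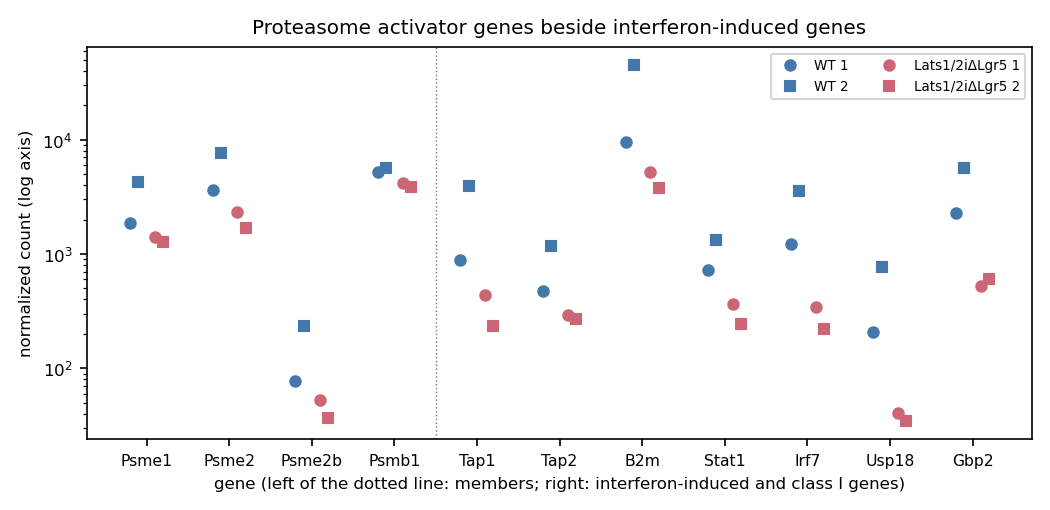
Normalized count on a log axis (y) of the 4 listed proteasome genes (left of the dotted line) and of 7 interferon-induced or class I genes (right); each point is 1 library, circles and squares libraries 1 and 2, blue WT and red Lats1/2iΔLgr5. The WT 2 square is above the WT 1 circle by a wide margin in the Psme genes and in all genes on the right, and by little in Psmb1 (5694 against 5241).

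Other genes of protein folding and disposal that the symbol rule does not reach were counted from 4 lists. Since 20.6% of all genes the authors tested were listed, the number of rows in a list says little about it. Of all listed genes, 42.9% were higher and the rest lower. Of 33 further ER folding and disposal genes, 8 were listed and all 8 were lower. P4hb, a disulfide isomerase and the one with the most counts, gave 78553 and 98951 normalized counts in WT and 48757 and 39217 in Lats1/2iΔLgr5, a log2 fold change of -1.01 ± 0.20 (SE). Qsox1, a secreted sulfhydryl oxidase, fell by 0.93 ± 0.20 and Erp44, which retains Ero1 oxidases in the ER, by 0.76 ± 0.14. Os9 and Sel1l of the disposal complex fell by 0.68 ± 0.14 and 0.48 ± 0.15, and Erp29, Selenos and Txndc5 also fell.

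Of 25 further cytosolic, nuclear and mitochondrial chaperone genes, 6 were listed, 5 higher and 1 lower. Nap1l1, a histone chaperone, rose by 1.17 ± 0.14 (SE) on the log2 scale and Npm1, a nucleolar chaperone, by 0.90 ± 0.15. Nudc, an HSP90 cofactor, Trap1, the mitochondrial HSP90, and Lonp1, a mitochondrial protease, rose by 0.63 ± 0.15, 0.52 ± 0.15 and 0.54 ± 0.16. Grpel2, an exchange factor of the mitochondrial HSP70, fell by 0.63 ± 0.18. The proteasome list had 2 of 14 listed, both lower: Pomp, which assembles the core, and Ecpas, which binds the whole particle.

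Of 18 stress regulators, 3 were listed. Hsf1, the activator of heat-shock genes, gave 327 and 286 normalized counts in WT and 549.6 and 541 in Lats1/2iΔLgr5, a log2 fold change of 0.83 ± 0.20 (SE). Atf4, a factor of the integrated stress response, gave 8333 and 8427 against 4830 and 5251, or -0.73 ± 0.12. Nfe2l2, which drives antioxidant and proteasome genes, gave 16605 and 16049 against 12852 and 12204, or -0.38 ± 0.13. With the authors' size factors, Hsf1 was thus higher and Atf4 and Nfe2l2 lower in both Lats1/2iΔLgr5 libraries.

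**Figure D4:**
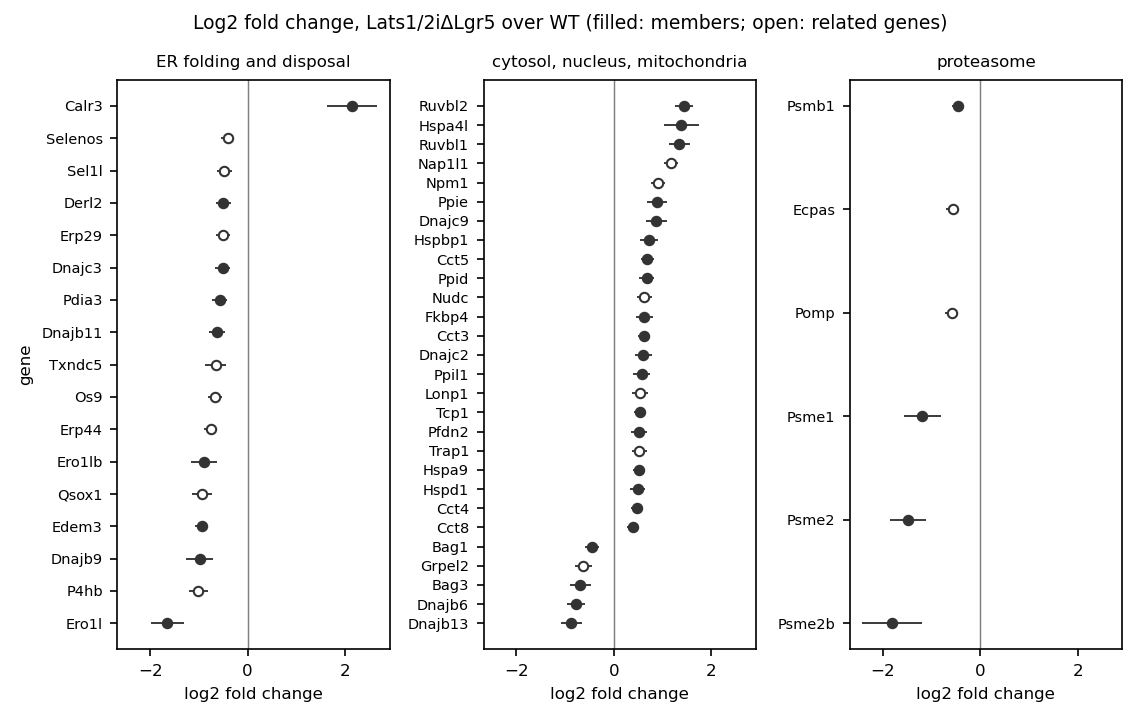
Log2 fold change of Lats1/2iΔLgr5 over WT (x axis, edgeR, bars are ± 1 SE, 2 libraries per genotype) for the genes chosen by symbol (filled) and the listed genes of the further folding and proteasome lists (open), in 3 compartments. Calr3 is the only ER gene right of 0, the cytosolic, nuclear and mitochondrial genes lie on both sides, and all 6 proteasome genes lie left of 0.

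The counts of calls change with the scaling and with the libraries used. The authors' size factors were used throughout; factors computed from the listed genes alone move every log2 fold change up, by 0.36 with TMM and 0.41 with DESeq2's method, and turn the share of higher genes among all called from 42.9% to 70.1% and 72.8%. All 35 directions held under both, but 13 of the 16 genes that fell no longer passed the edgeR test. Edem3, Ero1l and Psme2 still passed. The log2 fold changes of Dnajc3, Derl2, Bag1 and Psmb1 shrank to between -0.15 and -0.04, so these falls depend on the scaling. In the further lists, the falls of Nfe2l2 (-0.38), Selenos (-0.41), Sel1l (-0.48) and Erp29 (-0.50) are close in size to these shifts. They therefore depend on the scaling too. With a library left out, its genotype has 1 library, the spread is estimated from the pair of the other genotype, and the lone library is assumed to vary like them. Without Lats1/2iΔLgr5 2, 0 of the 35 genes passed in edgeR (adjusted p 0.0702 to 0.131; 19 had an unadjusted p under 0.05), and over all listed genes 4 higher and 1 lower did, although only 2 of the 35 fold changes (Dnajb9 and Bag3) moved by over 1.5 times. Without Lats1/2iΔLgr5 1, 19 of the 35 lost the call. Leaving out WT 1 cost 6 calls and leaving out WT 2 cost 5. An exact two-sided permutation test of 2 libraries against 2 cannot give a p below 0.333.

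**Figure D5:**
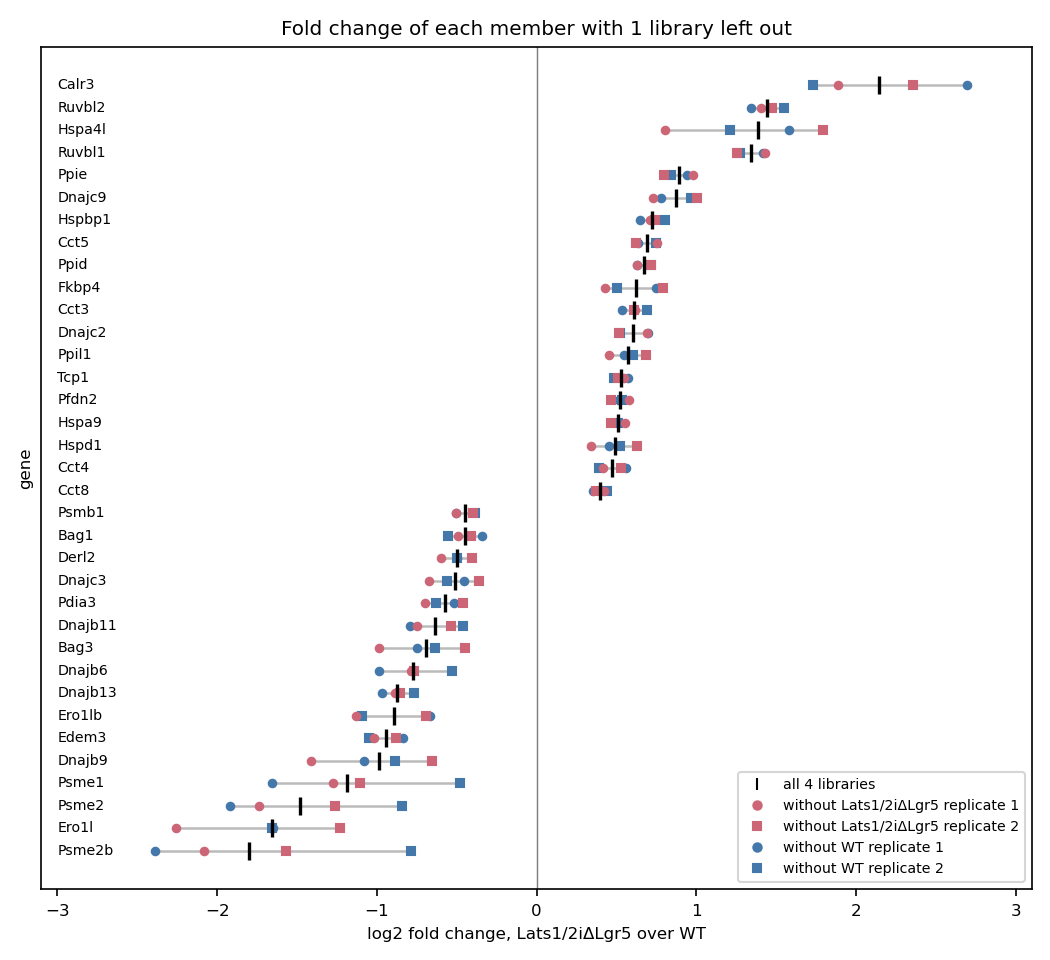
Log2 fold change of each of the 35 genes (x axis; black bars, all 4 libraries) and its value after each library is left out (red circles and squares, without Lats1/2iΔLgr5 1 and 2; blue circles and squares, without WT 1 and 2). No point crosses 0, and the widest ranges are those of Psme2b, Psme1, Psme2, Ero1l, Hspa4l and Calr3.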

How the data were processed

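The comparison used 2 WT and 2 Lats1/2iΔLgr5 libraries. The submitters' processing notes name GRCm38, TopHat2 2.1.1, HTSeq and DESeq2; their settings and the use of strand in counting were not given in the sources used here. For each gene the deposited table gives raw, whole-number read counts in the 4 libraries. Per the file headers it also holds the authors' DESeq2 base mean (a signal, the mean of normalized counts), log2 fold change with its standard error (shrunken, slope 0.768 on the log2 ratio of means), Wald statistic (a score), p-value and adjusted p-value. The largest deposited adjusted p-value is 0.05; the authors tested an inferred 13138 genes.

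The authors' size factors (0.792, 0.907, 1.10 and 1.28 for WT 1, WT 2, Lats1/2iΔLgr5 1 and 2) were recovered from base means, which they rebuilt within 0.0119%. Levels are counts divided by these factors. The raw counts were tested, with the same factors as scaling, in edgeR 4.0.16 (quasi-likelihood, genotype as the factor, filterByExpr, Benjamini-Hochberg over all listed genes, threshold 0.05); fold changes come from the unfiltered fit, with SE as the fold change over the square root of its F statistic. The script was tested on simulated data. "Rose" and "fell" refer to the authors' table. Because every row was selected by the authors for a difference, these tests are not independent of that selection.

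Symbols are from GENCODE M21 (2698 of 2701 IDs matched); deposited starts mostly lie 1 base below GENCODE's, so 1 was added. Promoters are RefSeq windows of GRCm38.p6. Named are, per class, up to 4 genes with the smallest deposited adjusted p and up to 3 in the opposite direction, plus Agr2, Hspa5, Hspa8, Hsp90aa1, Hsp90ab1, Hsp90b1, Hspd1, Calr and Canx where listed (only Hspd1 was); others are marked. The genes, lists and markers were chosen with earlier results of these data known. Alternatives were TMM and DESeq2 1.42.0 scaling, the DESeq2 Wald test, no filter, each library left out and a replicate block.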

Additional observations from a re-analysis of the deposited data

How the results depend on the processing

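Across 9 alternatives no direction of the 35 genes reversed. With the DESeq2 Wald test on the authors' factors and with no low-count filter all 35 calls held. That outcome was all but fixed in advance and says little about robustness. The authors' own DESeq2 test selected these rows, and the filter removed none of the 35. Leaving out 1 library gave 0 to 16 genes called higher and 0 to 14 called lower, against 19 and 16, the lowest without Lats1/2iΔLgr5 2. With TMM and with DESeq2 factors from the listed genes, 3 genes were called lower by either. The median over the 35 was then 0.83 and 0.87, and class medians were, in the same order, 0.87 and 0.92 (heat-shock chaperones), -0.27 and -0.23 (J proteins), -0.092 and -0.048 (cofactors), 0.89 and 0.93 (chaperonin and prefoldin), 1.75 and 1.80 (RuvB-like), 1.01 and 1.05 (isomerases), -0.38 and -0.34 (ER) and -0.086 and -0.042 (proteasome core). These moves follow from the shift that both scalings add to every gene. The activator median lay between -1.92 and -0.79 with 1 library left out, the smallest change being without WT 2. The labels number the libraries 1 and 2 in both groups but do not say that a number is shared. Deviations of same-numbered libraries correlated at -0.16 across genes. With the replicate block 33 of the 35 calls held, and Pfdn2 (edgeR adjusted p 0.0564) and Psme2b (0.0501) were lost. With the crossed pairing, chosen after seeing the data, 19 and 16 genes were called. Depth limits Calr3 and Psme2b most, which have the fewest counts here.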
